A study of Mus musculus with 10 samples.

Results

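Bone morphogenetic proteins (BMPs), their receptors, the SMAD proteins that carry their signal and their extracellular antagonists were examined in clonal lines of 3T3-L1, a mouse embryonic fibroblast line that can be turned into fat cells. The list named 31 genes, and each was represented by 1 probe set annotated to that gene alone, among 19937 genes on the arrays. Lines were classed by how much triglyceride they stored after a cocktail of insulin, dexamethasone and IBMX, and 5 High and 5 Low lines were taken. In order of replicate, clone 3F4, clone 4D2, clone 4E3, clone 5C4 and clone 5D4 are the High lines, while clone 1E7, clone 2D7, clone 2F1, clone 4D11 and clone 4H4 are the Low lines. Replicate numbers are not in the labels and were given here in sample order. All 10 lines were grown in DMEM with serum, and RNA was taken while they proliferated below confluence and untreated. Each line is 1 clone and gave 1 whole-transcript array, so a difference between arrays holds clonal and technical variation together.

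BMP ligands bind pairs of type I and type II receptor kinases at the cell surface. The activated type I receptor phosphorylates SMAD1, SMAD5 or SMAD9, which enter the nucleus with SMAD4, while SMAD6 and SMAD7 are inhibitory SMADs that the signal itself induces. BMP2 and BMP4 are known for committing mesenchymal cells to the fat lineage, and the secreted protein VSTM2A has been described as an amplifier of adipogenic commitment. The class comparison therefore asks whether transcripts of this pathway differed before the cocktail was given.

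Genes were tested when 5 or more of the 10 arrays gave a value above that array's 25th percentile, which held for 28 of the 31 members and not for Bmp2, Bmp5 and Bmpr1b. Of the 28, 22 also lay above the median in 5 or more arrays, whereas Bmp3, Bmp6, Bmp7, Gdf5, Gdf6 and Chrd did not. Values are log2 intensities on which RMA had been run, and because probe sets differ in their response they are compared only between lines and never between genes. In such bulk RNA, fewer cells of a kind and less RNA per cell cannot be told apart. The same filter was passed by 9 of 9 preadipocyte and fibroblast markers, but also by 5 of 5 endothelial, 4 of 4 epithelial, 3 of 3 neural and 4 of 4 skeletal muscle markers, so passing it does not mark a cell type. The median was exceeded by 8 of the 9 preadipocyte and fibroblast markers, 1 endothelial, 0 epithelial, 1 neural and 2 skeletal muscle markers. Of 4 mature adipocyte markers 2 passed the filter, 1 of them above the median, and Adipoq and Lep did not. Of 4 leukocyte markers 2 passed, 1 of them above the median, and Ptprc and Adgre1 did not. Of 3 osteoblast and chondrocyte markers 2 passed, 1 of them above the median, and Ibsp did not. The array of High replicate 4 gave the highest of the 10 values for 28.9% of all tested genes, against 4.99% to 10.4% for each other array, and its deviations ran against brightness (correlation across genes -0.38).

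None of the 28 tested members passed an adjusted p of 0.05 between High and Low lines in limma, where 0.00612% of all 16339 tested genes (1 gene) did. At an unadjusted p under 0.05 there were 2 members (7.14%), against a background of 7.95% of tested genes. Of these, 1 was higher in High lines (Smad9), as were 3.16% of tested genes, and 1 was lower (Smad1), as were 4.79%. Differences, given as High minus Low, were positive for 21 and negative for 7 members (75.0% positive, against 58.0% of all tested genes), with a median of 0.04 against 0.02 over all tested genes. This split moved with the setting. With clones blocked by the first digit of their name it was 13 positive and 15 negative (46.4%, against 49.2% of all tested genes), and with neighbouring genes subtracted 18 and 10 (64.3%, against 51.9%). Without High replicate 4 it was 18 and 10 (64.3%, against 52.1%), and without High replicate 1 it was 17 and 11 (60.7%, against 56.6%). For 25 of the 28 members the 95% confidence interval of the difference lay within 0.5 log2 units, or 1.41-fold, in either direction. Bmp4, Smad9 and Chrdl1 were the 3 exceptions, so larger class differences in these genes lie within their intervals. The same bound held the intervals of 14964 of the 16339 tested genes.

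**Figure D1:**
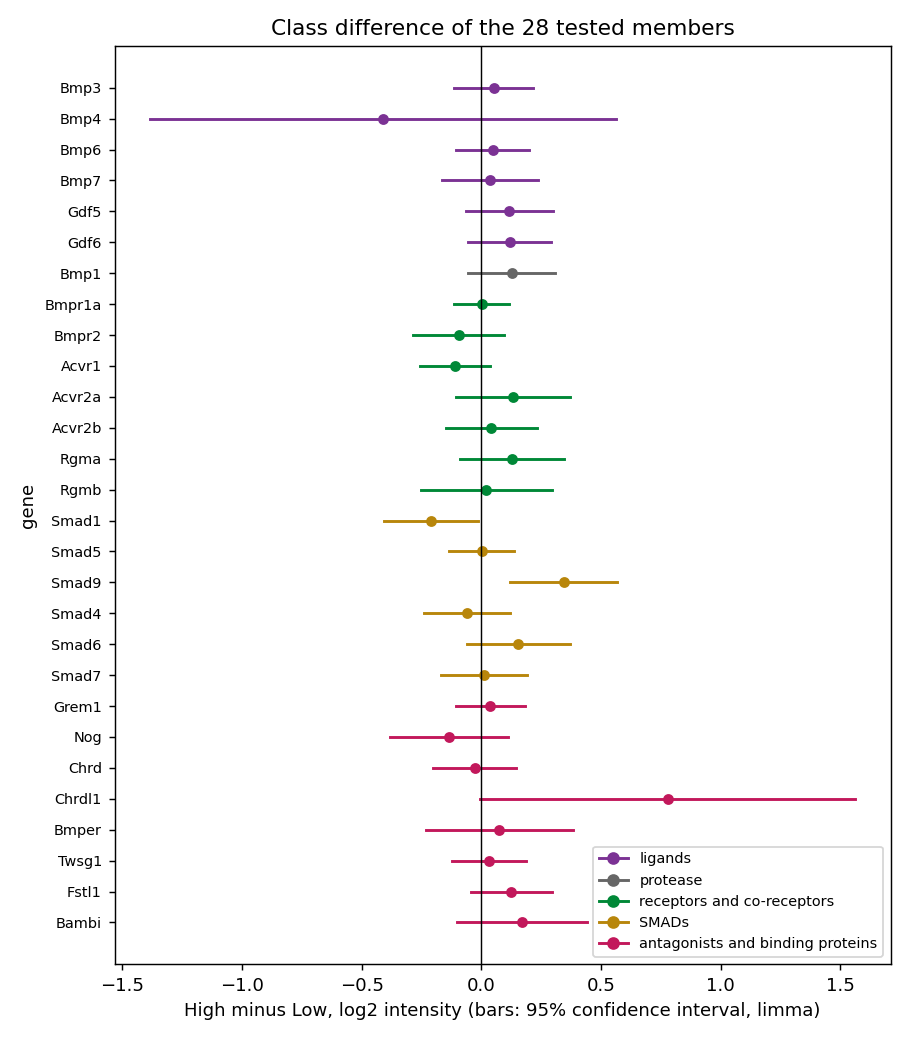
High minus Low difference in log2 intensity (horizontal axis) for each of the 28 tested members, with 95% confidence intervals from limma and colours by role. Most intervals span 0 within 0.5 log2 units, Smad9 lies above 0 and Smad1 below it with no adjustment for multiple tests, and those of Bmp4 and Chrdl1 are the widest.

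Sequences just before the annotated gene start are shown for Smad9 and Smad1, the members with the smallest unadjusted p. Those of Smad6 and Id4 were chosen after their slopes on Smad9 over lines (given further on) had been seen. Id4 is not a member but a gene from the list of BMP response genes. No sequence was taken for Atoh8 of that list, whose slope on Smad9 was larger. They were taken from RefSeq on GRCm38.p6, read 5′ to 3′ on the gene's strand, and stop where the annotated transcripts begin. Capitals mark GGCGCC, a GC-rich element known from SMAD-bound enhancers of BMP targets, which is its own reverse complement. Smad9 lies at chr3:54755332-54755454 (plus strand), Smad6 at chr9:64022086-64022309 (minus strand), Id4 at chr13:48260866-48261115 (plus strand) and Smad1 at chr8:79399429-79399678 (minus strand).
Smad9: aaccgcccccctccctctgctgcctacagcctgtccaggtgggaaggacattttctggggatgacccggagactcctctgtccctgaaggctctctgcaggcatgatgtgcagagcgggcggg
Smad6: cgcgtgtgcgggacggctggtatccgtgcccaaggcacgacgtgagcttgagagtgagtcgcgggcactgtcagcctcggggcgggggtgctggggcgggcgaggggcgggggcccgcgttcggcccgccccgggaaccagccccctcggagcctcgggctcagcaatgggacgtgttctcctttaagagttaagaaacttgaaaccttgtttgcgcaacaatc
Id4: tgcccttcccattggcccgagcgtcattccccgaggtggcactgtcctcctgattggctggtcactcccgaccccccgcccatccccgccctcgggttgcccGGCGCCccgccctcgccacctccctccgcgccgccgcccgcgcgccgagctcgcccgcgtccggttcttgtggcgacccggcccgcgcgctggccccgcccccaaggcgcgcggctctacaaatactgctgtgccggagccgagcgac
Smad1: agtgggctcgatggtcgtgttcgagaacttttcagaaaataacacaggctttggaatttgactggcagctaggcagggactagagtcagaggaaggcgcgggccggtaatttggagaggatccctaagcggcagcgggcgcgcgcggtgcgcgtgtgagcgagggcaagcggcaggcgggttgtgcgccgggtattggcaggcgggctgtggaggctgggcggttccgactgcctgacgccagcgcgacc

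Windows of 300 bases covered 250 before and 50 after a start of their own. In them GGCGCC occurred once each for Smad9 and Id4 and was not found for Smad6 or Smad1. For Smad9 and Smad6 the window's start lay past the annotated gene start, so their printed stretches hold only its first 123 and 224 bases. The Smad9 match lies past the printed stretch and need not be within 50 bases of the annotated gene start. The shorter SMAD box CAGAC, read on both strands (CAGAC or GTCTG), was found in none of these 4 windows. RefSeq's table held 25 windows for 19 members, of which 8 (32%) had GGCGCC and 12 (48.0%) had CAGAC. Over all 32851 windows the shares were 11.9% and 49.6%. The member windows were also richer in G and C, with a median of 66.7% against 52.7% in all windows, and its part in the GGCGCC share was not tested.

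Among the ligands, Bmp4 was the gene whose level differed most between lines. Its log2 intensities were 7.67, 7.95, 9.00, 7.93 and 8.55 in High replicates 1 to 5, against 7.68, 8.64, 9.99, 7.44 and 9.39 in Low replicates 1 to 5. The classes overlapped throughout, with the highest and the lowest line of all both in the Low class, 5.86-fold apart. The mean was 8.22 ± 0.54 in High lines and 8.63 ± 1.09 in Low lines (SD, n = 5 each), a difference of -0.41 (95% confidence interval -1.39 to 0.56, limma adjusted p = 0.829). Its SD within classes was larger than that of 99.7% of tested genes. With 1 line left out the difference ran from -0.71, without Low replicate 4 (the lowest line), to -0.07, without Low replicate 3 (the highest line). It was -0.65 without Low replicate 1 and -0.22 without Low replicate 5.

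The other ligands gave small differences at low signal. BMP3, which opposes other BMPs in bone, differed by 0.05, BMP6, an iron-regulating ligand of the liver, by 0.05, and BMP7, known for promoting brown fat, by 0.04. Gdf5 and Gdf6, the joint and skeletal patterning ligands, differed by 0.12 each. The limma adjusted p of these 5 genes ran from 0.763 to 0.922. Bmp2 had 6.27 ± 0.11 in High lines and 6.24 ± 0.05 in Low lines (SD, n = 5 each), below the filter (two-sided exact permutation p = 0.595). Bmp5, likewise below the filter, had 6.15 ± 0.19 in High lines and 6.04 ± 0.10 in Low lines (SD, n = 5 each, exact permutation p = 0.333). High replicate 4 was the highest line for 5 of the 8 ligands (Bmp3, Bmp5, Bmp6, Bmp7 and Gdf6) and for 11 of all 31 members. Of the 28 tested members it was the highest line for 9, beside the 28.9% of tested genes given above. The part of that array in these small positive differences was not tested. Without High replicate 4, the differences were 0.0241 for Bmp3, 0.0257 for Bmp5, 0.0068 for Bmp6, -0.0435 for Bmp7 and 0.0581 for Gdf6. Because these ligands were picked for having their highest value in that line, leaving it out could only lower them. Bmp1, which despite its name is a protease that cleaves procollagens and chordin, had 12.39 ± 0.17 in High lines and 12.26 ± 0.08 in Low lines (SD, n = 5 each), a difference of 0.13 (limma adjusted p = 0.758).

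**Figure D2:**
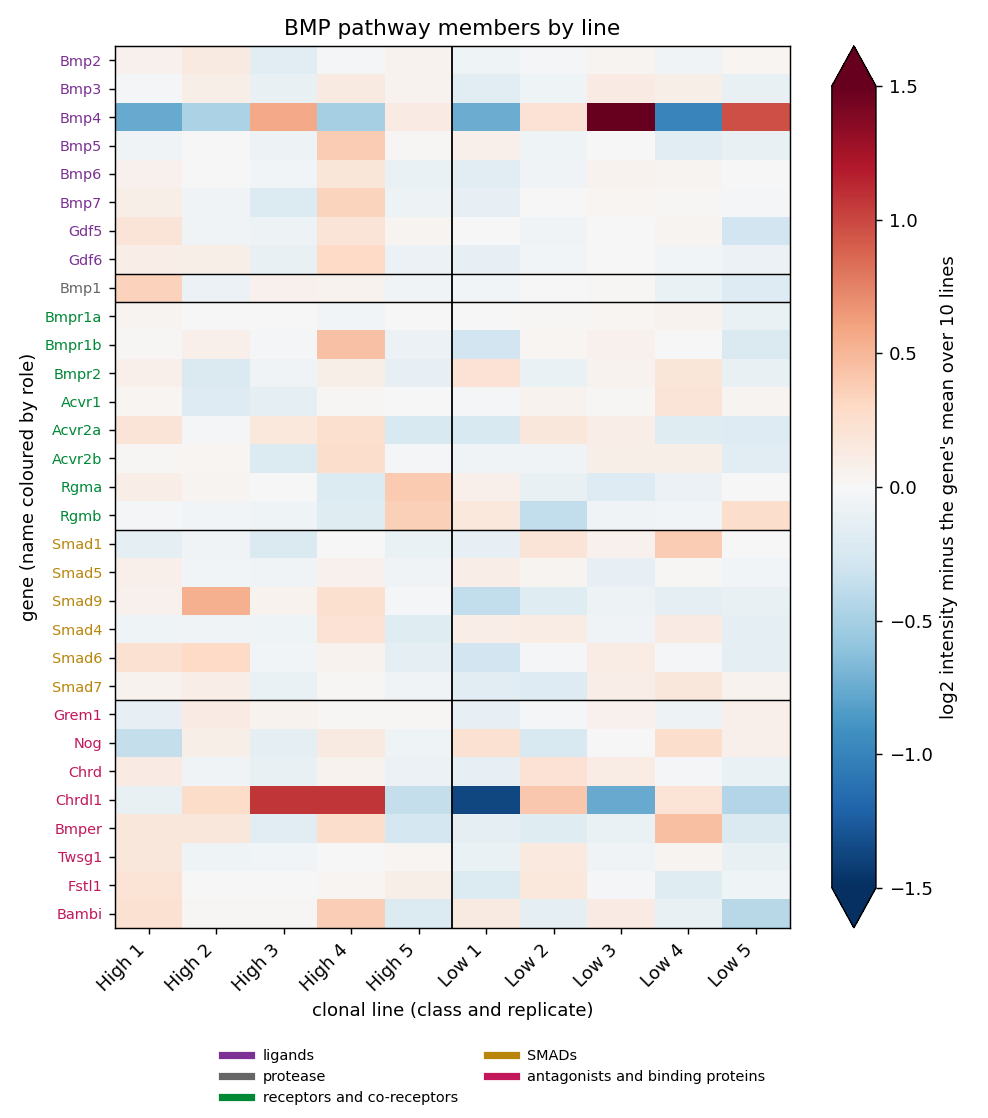
Log2 intensity of each of the 31 members minus its mean over the 10 lines, with lines in columns (5 High lines left of the vertical rule, 5 Low lines right of it) and genes in rows by role. Bmp4 and Chrdl1 have the strongest colours, in lines of both classes, and the row of Bmpr1a is nearly uniform.

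Receptor transcripts varied less from line to line than those of Bmp4, but about as much as tested genes in general. Their median SD within classes was 0.142, against 0.137 over all tested genes. Rgmb had a larger SD within classes than 86.5% of tested genes, and Bmpr1a was at the other end. Bmpr1a, the type I receptor through which BMP2 and BMP4 signal, had 12.13, 12.10, 12.09, 12.05 and 12.09 in High lines, against 12.09, 12.10, 12.11, 12.14 and 11.99 in Low lines. All 10 lines lay within 1.11-fold, and only 0.85% of tested genes had an SD within classes as small or smaller. Its class difference was 0.00 (95% confidence interval -0.11 to 0.12). Bmpr2, the type II receptor specific to BMPs, differed by -0.10, and Acvr1 (ALK2), a type I receptor for BMP6 and BMP7, by -0.11, with 10.39 ± 0.10 in High lines and 10.51 ± 0.08 in Low lines (SD, n = 5 each). The type II receptors Acvr2a and Acvr2b, shared with activins, differed by 0.13 and 0.04. The co-receptors Rgma and Rgmb, membrane-anchored proteins that bind BMPs, differed by 0.13 and 0.02. Of these 7 tested receptors and co-receptors, 5 differences were positive and 2 negative (71.4% positive, against 58.0% of all tested genes). Their median was 0.02 and their limma adjusted p ran from 0.725 up. Bmpr1b, a type I receptor known from cartilage, stayed below the filter, with 5.65 ± 0.21 in High lines and 5.49 ± 0.16 in Low lines (SD, n = 5 each, exact permutation p = 0.222).

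The signal-carrying SMADs held the members nearest to the threshold, and they pointed in opposite directions. Smad9 (SMAD8, Entrez gene 55994) had 9.80, 10.27, 9.79, 9.98 and 9.72 in High replicates 1 to 5, against 9.38, 9.56, 9.67, 9.61 and 9.63 in Low replicates 1 to 5. Every High line lay above every Low line, though High replicate 5 exceeded Low replicate 3 only narrowly. The mean was 9.91 ± 0.22 in High lines and 9.57 ± 0.11 in Low lines (SD, n = 5 each), a difference of 0.34 (SE 0.10, 95% confidence interval 0.12 to 0.57). This is 1.27-fold, and its p was 0.00562 unadjusted and 0.400 after adjustment in limma. Smad9 was the 1 tested member of 28 whose lines did not overlap (3.57%), where 1.57% of tested genes did so. With each line left out in turn the difference ran from 0.26 to 0.39, and the limma adjusted p was at lowest 0.25.

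Smad1 (Entrez gene 17125) had 9.22, 9.32, 9.15, 9.37 and 9.27 in High replicates 1 to 5, against 9.24, 9.57, 9.43, 9.75 and 9.38 in Low replicates 1 to 5. The High lines were close together and overlapped the Low range only above Low replicate 1. The difference was -0.21 (SE 0.09, 95% confidence interval -0.41 to -0.01), with an unadjusted p of 0.0387 and a limma adjusted p of 0.593. Smad1 lies on chromosome 8, and with the median deviation of its 50 nearest genes subtracted the difference was -0.12. Without Low replicate 4, the highest line, it was -0.14.

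Smad5, the third BMP-activated SMAD, had 10.70 ± 0.07 in High lines and 10.70 ± 0.09 in Low lines (SD, n = 5 each), and only 8.81% of tested genes varied as little or less within classes. The common partner Smad4 differed by -0.06 (95% confidence interval -0.24 to 0.12). The inhibitory SMADs, both feedback targets of the pathway, differed by 0.15 for Smad6 (95% confidence interval -0.06 to 0.37) and by 0.01 for Smad7 (95% confidence interval -0.17 to 0.19). Of the 6 SMADs, 4 differences were positive and 2 negative (66.7% positive, against 58.0% of all tested genes), and their median was 0.01.

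**Figure D3:**
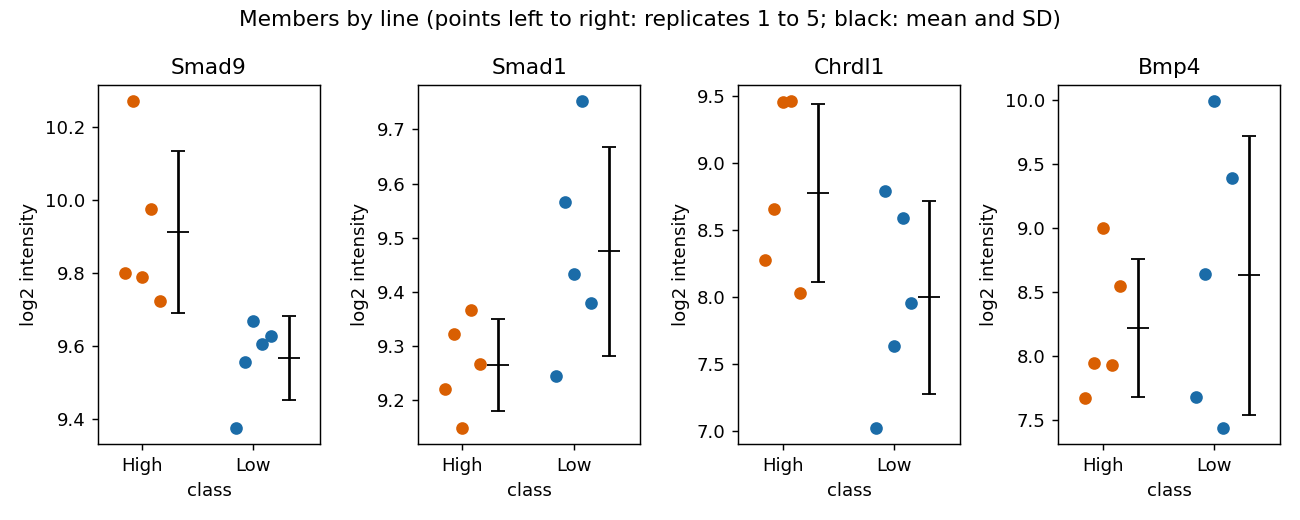
Log2 intensity of Smad9, Smad1, Chrdl1 and Bmp4 in each line, with High lines left of Low lines in every panel and the class mean and SD in black. The High values of Smad9 all exceed the Low values (lowest High line 9.72, highest Low line 9.67), and the classes overlap for the other 3 genes.

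Among the antagonists, Chrdl1, encoding a chordin-like secreted protein that binds BMPs, varied most between lines, and its class difference was the largest in size of the 28 tested members. It measured 8.28, 8.66, 9.46, 9.46 and 8.03 in High replicates 1 to 5, against 7.02, 8.79, 7.64, 8.59 and 7.95 in Low replicates 1 to 5. High replicates 3 and 4 exceeded every Low line, and the other 3 High lines lay within the Low range. The mean was 8.78 ± 0.66 in High lines and 8.0 ± 0.72 in Low lines (SD, n = 5 each). The difference was 0.78 (95% confidence interval -0.01 to 1.56), which is 1.72-fold (limma adjusted p = 0.629). The lines spanned 5.42-fold, and the SD within classes exceeded that of 99.4% of tested genes. Leaving out 1 line gave differences from 0.53, without Low replicate 1, to 0.98, without Low replicate 2.

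The other antagonists and binding proteins differed less. Grem1, encoding gremlin, had 13.67 ± 0.09 in High lines and 13.63 ± 0.09 in Low lines (SD, n = 5 each), with all lines within 1.19-fold. Nog (noggin), which binds BMPs and keeps them from their receptors, differed by -0.14 (95% confidence interval -0.38 to 0.11), and Chrd (chordin) by -0.03. Bambi, a decoy receptor without a kinase domain, differed by 0.17 (95% confidence interval -0.10 to 0.44). Twsg1, a chordin partner with both promoting and blocking roles, differed by 0.03, the endothelial cell-derived binder Bmper by 0.07 and the secreted glycoprotein gene Fstl1 by 0.13. Over the 8 genes of this class, 6 differences were positive and 2 negative (75.0% positive, against 58.0% of all tested genes). Their median was 0.06 and their limma adjusted p ran from 0.629 up.

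Genes that BMP signalling is known to induce or to work through did not pass the threshold either. Of 22 listed response genes, 20 were tested, and 0 were higher and 0 lower past an adjusted p of 0.05 in limma. At an unadjusted p under 0.05 there were 3 (15.0%, against the background of 7.95%). Their differences were positive for 14 and negative for 6, with a median of 0.06. Over all tested genes 58.0% were positive, with a median of 0.02. Id4, an inhibitor of basic helix-loop-helix factors, had 10.09, 10.62, 10.30, 10.34 and 10.16 in High replicates 1 to 5, against 9.53, 9.33, 10.06, 9.74 and 9.93 in Low replicates 1 to 5. The difference of Id4 was 0.58 (limma adjusted p = 0.277). Id4 was the 1 response gene of 20 whose classes did not overlap, where 1.57% of all tested genes did so. Atoh8, a basic helix-loop-helix factor induced by BMPs in liver and endothelium, had 11.71, 12.10, 11.79, 11.90 and 11.53 in High lines, against 11.15, 11.17, 11.76, 11.70 and 11.41 in Low lines, which overlap. Its difference was 0.37 (limma adjusted p = 0.515). The T-box factor gene Tbx3 differed by -0.15 (limma adjusted p = 0.593).

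Of 46 other pathway genes listed, 43 were tested, with 0 higher and 0 lower past the threshold in limma. At an unadjusted p under 0.05 there were 4 (9.30%, against 7.95% of all tested genes), and 26 differences were positive and 17 negative, where 58.0% of all tested genes were positive. Tgfbr3 encodes betaglycan, a co-receptor that can also bind BMPs. It had 11.81 ± 0.11 in High lines and 11.56 ± 0.13 in Low lines (SD, n = 5 each), a difference of 0.25 (limma adjusted p = 0.420). Tgfbr3 was the 1 gene of these 43 without overlap between the classes, where 1.57% of all tested genes had none. Smurf1, a ubiquitin ligase that marks SMAD1 and SMAD5 for degradation, differed by 0.24, the BMP-binding membrane protein gene Crim1 by -0.24, and Furin, which cleaves BMP precursors, by -0.17. Their limma adjusted p lay between 0.511 and 0.601.

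Among lines of one class, those with more Smad9 transcript also had the higher values of Atoh8, Id4 and Smad6 on average, short of the threshold over all genes. The relation was examined after the values had been seen, with a limma fit over all genes with the class and the Smad9 level of each line as terms. Its slope is the difference in a gene's log2 intensity per log2 unit of Smad9 within a class. The slope was 1.12 for Atoh8 (SE 0.31), 1.04 for Id4 (SE 0.34) and 0.70 for Smad6 (SE 0.25). Smad6 measured 11.19, 11.26, 10.92, 11.02 and 10.82 in High replicates 1 to 5, against 10.67, 10.93, 11.07, 10.93 and 10.81 in Low replicates 1 to 5. High replicate 2 was the highest line for Smad9, Smad6, Id4 and Atoh8, and Low replicate 1 the lowest for Smad9, Smad6 and Atoh8. With each line left out in turn, the slope ran from 1.01 to 1.65 for Atoh8, 0.91 to 1.29 for Id4 and 0.59 to 0.87 for Smad6. The highest value of each gene came without High replicate 2. The lowest came without Low replicate 3 for Atoh8 and Id4, and without High replicate 5 for Smad6.

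No gene passed the threshold for a slope on Smad9 (0.00% of 16338 genes), and the limma adjusted p was 0.602 for Atoh8, 0.696 for Id4 and 0.741 for Smad6. At an unadjusted p under 0.05 there were 2 of 20 response genes and 1 of 27 members, against 6.26% of all genes. The slopes of Id1, Id2 and Id3, classic targets named here after their values were seen, were 0.23, 0.32 and 0.51 with intervals that include 0. Of the 20 response genes, 16 had a positive slope, where 57.5% of all genes did. Among these 16, High replicate 4 was the highest line for Msx2, Dlx3, Dlx5, Sp7 and Alpl, beside 28.9% of all tested genes. That line was next to High replicate 2 in Smad9 level, and its part in the count was not tested.

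**Figure D4:**
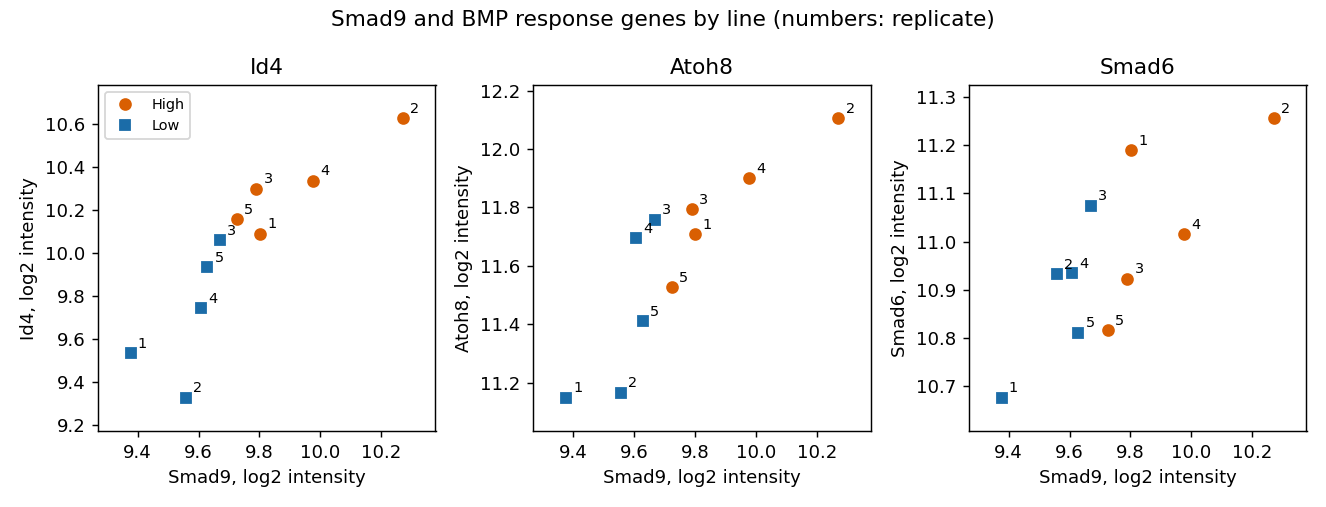
Log2 intensity of Id4, Atoh8 and Smad6 (vertical axes) against that of Smad9 (horizontal axis) in each line, with High lines as circles, Low lines as squares and the replicate number beside each point. High replicate 2 is at the upper right and Low replicate 1 at the lower left in the panels of Atoh8 and Smad6, and the other lines of each class lie between them.

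The level of Bmp4, the most variable ligand, was set against the response genes in the same way. In a fit of the same form with Bmp4 as the term, 0 of 20 response genes had an unadjusted p under 0.05, against 3.29% of all genes, and no gene passed the threshold in limma (0.00%). The slope was 0.07 for Id1 (95% confidence interval -0.01 to 0.15), 0.12 for Id4 (-0.07 to 0.32), 0.06 for Id3 and 0.01 for Smad6. Slopes were positive for 7 of the 20 response genes and 10 of 27 members, where 41.4% of all genes had a positive one. Of the other 27 members, Bmper alone had an unadjusted p under 0.05, with a slope of -0.19 (limma adjusted p = 0.994), and without Low replicate 4, in which Bmper was highest, its slope was -0.10. For Chrdl1, the unadjusted p of the slope was under 0.05 for the co-receptors Rgmb (-0.23) and Rgma (-0.17) and for none of the response genes, where 3.53% of all genes had such a p. Slopes on Chrdl1 were positive for 18 of 27 members and 53.3% of all genes. Without High replicate 5, where both co-receptors were highest, the slope on Chrdl1 was -0.11 for Rgma and -0.18 for Rgmb. No member passed the threshold for a slope on Chrdl1 in limma, where 0.00612% of genes (1 gene, Ankrd1) did.

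The list was then set against Vstm2a over lines. Vstm2a had 10.94, 10.60, 10.37, 10.61 and 8.65 in High replicates 1 to 5, against 7.31, 8.03, 7.38, 7.21 and 7.96 in Low replicates 1 to 5. Because 4 High lines stand apart from the remaining 6 lines, no pooled correlation is given, and the slope on Vstm2a was estimated within classes. High replicate 5 is the only High line near the Low range.

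No member passed the threshold for a slope on Vstm2a within classes in limma, where 0.00612% of 16338 genes (1 gene, the Wnt antagonist gene Sfrp2) did. At an unadjusted p under 0.05 there were 3 of 28 members, against 3.33% of all genes. The slope was 0.18 for Acvr2a (95% confidence interval 0.02 to 0.34), -0.16 for Rgma (-0.31 to -0.01) and -0.20 for Rgmb (limma adjusted p = 0.9998 for each). Rgma measured 10.20, 10.14, 10.09, 9.90 and 10.50 in High replicates 1 to 5, against 10.18, 9.99, 9.91, 10.01 and 10.10 in Low replicates 1 to 5. High replicate 5 was the highest line, and without it the slope was 0.05, of the opposite sign. Rgmb measured 10.85, 10.82, 10.80, 10.68 and 11.23 in High replicates 1 to 5, against 11.02, 10.49, 10.81, 10.82 and 11.13 in Low replicates 1 to 5. The classes overlapped, and the slope without High replicate 5 was -0.09. Acvr2a measured 10.17, 9.96, 10.13, 10.22 and 9.75 in High replicates 1 to 5, against 9.75, 10.15, 10.08, 9.79 and 9.79 in Low replicates 1 to 5. High replicate 5 lay low here, with 3 Low lines, and the slope ran from 0.16 to 0.21 with each line left out.

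The other members gave slopes on Vstm2a whose intervals include 0. The slope was 0.10 for Smad9 (95% confidence interval -0.08 to 0.28), 0.41 for Chrdl1 (-0.19 to 1.01), 0.13 for Smad6 (-0.03 to 0.29) and -0.08 for Bmp4 (-0.89 to 0.74). With 1 line left out, the slope ran from 0.0277, without High replicate 5, to 0.15, without High replicate 1, for Smad9. For Chrdl1 it ran from 0.16 to 0.62, without the same lines in turn. Of the 28 members, 16 had positive and 12 negative slopes, and of all genes 58.9% had a positive one. Among the 20 response genes 0 had an unadjusted p under 0.05, and the slope was 0.02 for Id4 (-0.24 to 0.28) and 0.08 for Atoh8 (-0.17 to 0.33). Without the class term, which mixes the class difference into the slope, 15 genes passed the threshold in limma and no member was among them. Smad9 then had a slope of 0.12 (limma adjusted p = 0.189) and Chrdl1 one of 0.31 (limma adjusted p = 0.363).

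**Figure D5:**
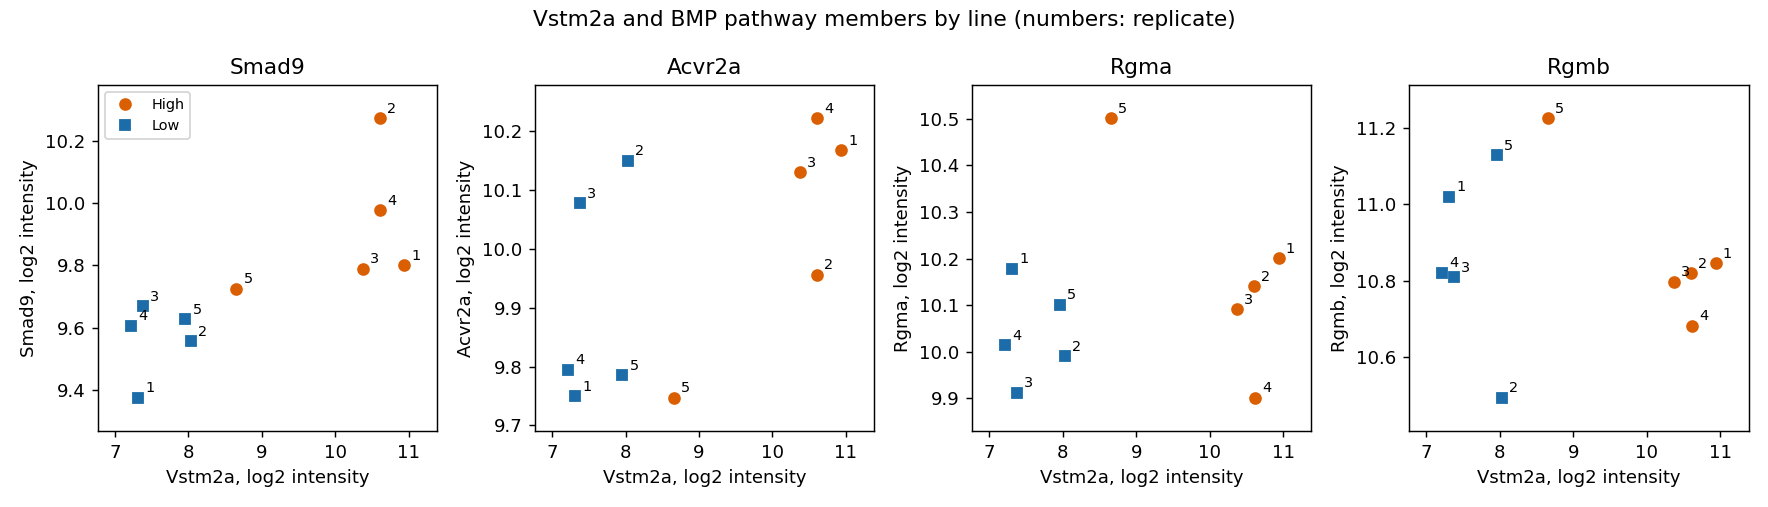
Log2 intensity of Smad9, Acvr2a, Rgma and Rgmb (vertical axes) against that of Vstm2a (horizontal axis) in each line, with High lines as circles, Low lines as squares and the replicate number beside each point. High replicate 5, at a Vstm2a level of 8.65, lies between the other High lines and the Low lines, and it has the highest Rgma and Rgmb values.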

How the data were processed

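Total RNA from 10 lines was hybridised to Affymetrix whole-transcript arrays, 1 array a line. The deposited values are log2 intensities made with RMA by the authors, per the submitters' processing notes, which give no version. RMA brings array distributions close together, so shared shifts can be lost. The medians of the deposited arrays still ran from 7.74 to 7.84. Its settings, the build and any batch: not given in the sources used here. Of 34760 probe sets, 21640 carried 1 gene symbol, 1321 several and 11799 were unnamed here. The brightest probe set stood for each gene.

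Genes above an array's 25th percentile in at least 5 arrays (16339) were fitted with limma 3.58.1 in R 4.3.3 (lmFit, eBayes), two-sided, with Benjamini-Hochberg adjustment over all of them and a threshold of 0.05. Slopes on Vstm2a had the class as a term. Members below the filter had exact permutation tests over all 252 assignments, whose smallest p is 0.00794. Python 3.11.15 and scipy 1.17.1 were used for these. Members and lists were chosen with earlier results of these data known, and the lists name genes known from textbooks. All members, and genes of the 2 other lists with the smallest unadjusted p (up to 4), are named. Alternatives covered filter, probe sets, scaling, variance, weights, the leading digit of the clone name, neighbouring genes and single lines. On simulated data for High against Low with 16339 genes, 34.0% of 50 genes changed 1.25-fold and 74.0% of 50 changed 1.5-fold were recovered. False calls numbered 13. Noise was independent between genes, and changes of up to 4-fold were planted together, so these shares need not hold for the real arrays. There, Id4 differed 1.50-fold with a limma adjusted p of 0.277. Precision is limited by the number of arrays.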

Additional observations from a re-analysis of the deposited data

Results flagged for a closer look

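Of 68 sets of 5 values of one class, over the 31 members, Vstm2a, Id4 and Atoh8, 3 held a line far from the other 4, where about 3.4 would be expected by chance. Bmp5 in High replicate 4 was 6.475, with the next High line at 6.11, and Bmp5 lay below the intensity filter. Bmper in Low replicate 4 was 9.86, with the next Low line at 9.30. Vstm2a in High replicate 5 was 8.65, with the next High line at 10.37.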

How the results depend on the processing

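Under the alternatives run, 0 members passed the threshold in the class comparison or for any slope, and 0 genes of the 2 other lists passed it in the class comparison. Of the tested members' differences under alternatives, 493 kept their direction and 33, in 12 members, turned. Below the filter, 29 kept it and 1 turned (Bmp2 at -0.0029 without High replicate 2). The share of all tested genes with a positive difference ran from 48.3% with the stricter filter to 65.6% with centred arrays. The number of genes past the threshold between the classes was 3 with array weights, 2 with arrays centred on the median, 0 with the clone name's leading digit as a block, and 1 to 19 with 1 line left out (19 without High replicate 5, 2 without Low replicate 3 or Low replicate 5). For slopes on Vstm2a it was 2 with centred arrays and 15 without the class term. It was 0 without the 2 lines farthest from the median Vstm2a of all lines. These were High replicates 1 and 4, so High replicate 5 was kept in that setting. With 1 line left out the number was 0 to 5 (0 without any single High line or Low replicate 4). It was 5 without Low replicate 1 and 3 without Low replicate 5. With 1 line left out it was 0 to 1 for Smad9 (1 without High replicate 2) and 0 to 2 for Chrdl1 (2 without High replicate 1, 0 without Low replicate 1). With the digit as a block, where only names starting with 4 inform the class term, differences were -0.0029 for Bmp3, 0.0554 for Bmp4, -0.0398 for Bmp6, -0.13 for Bmp7, -0.044 for Acvr2b, -0.17 for Rgmb, -0.0353 for Smad5, -0.12 for Smad7, -0.11 for Bmper and -0.0235 for Twsg1, and the receptor median was -0.044. Repeated quantile normalization gave -0.0017 for Bmp6 and -0.0069 for Bmp7, and array weights gave -0.0081 for Bmp7 and -0.0006 for Smad5. With neighbouring genes subtracted, Bmpr1a differed by -0.0297, Smad5 by -0.0192 and Smad7 by -0.0085. The ligand median was -0.41 with the stricter filter, which leaves Bmp4 alone. With 1 line left out, differences ran from -0.0435 to 0.0909 for Bmp7, -0.0221 to 0.016 for Bmpr1a, -0.0204 to 0.10 for Acvr2b, -0.0705 to 0.0884 for Rgmb, -0.0294 to 0.0286 for Smad5, -0.0372 to 0.0552 for Smad7, -0.0636 to 0.0212 for Chrd and -0.0064 to 0.0715 for Twsg1. The Rgma slope on Vstm2a ran from -0.20 to 0.0464, and was 0.0104 without the class term. Unless stated, the cause was not tested. No paired analysis was possible because the labels give no replicate numbers.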
